A study of Mus musculus with 24 samples.

Results

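Tumour necrosis factor (TNF) and the genes that its transcription factor NF-kappaB both answers to and induces were followed across mouse calf muscle. The set held 10 genes, chosen by symbol out of 54532 genes counted: the cytokine gene Tnf, its receptor genes Tnfrsf1a and Tnfrsf1b, the inhibitor genes Nfkbia, Nfkbiz and Tnfaip3, the NF-kappaB subunit genes Nfkb1, Nfkb2 and Relb, and the survival gene Birc3. All 10 symbols were found, and all are protein-coding in the GENCODE annotation of mouse build GRCm38.

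TNF binds its receptors on the cell surface, and the receptor complex activates IkappaB kinases, which release NF-kappaB from its IkappaB inhibitors so that it enters the nucleus. NF-kappaB then raises transcription of its own inhibitors, among them the IkappaB protein of Nfkbia and the ubiquitin-editing enzyme A20 of Tnfaip3, and this feedback ends the signal. A slower, non-canonical branch processes the Nfkb2 product p100 and pairs it with RelB. In skeletal muscle TNF is known as an inflammatory cytokine made mainly by immune cells that enter after injury, and NF-kappaB is also active in the fibres themselves.

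Stretches just before the transcription start are printed for 4 of the genes, because NF-kappaB binds DNA at kappaB elements. They come from the RefSeq promoter table of build GRCm38.p6, which matched 7 of the 10 genes with 10 windows. Each is written 5′ to 3′ on the strand of its gene, with motif matches in capitals. The Nfkbia stretch is chr12:55492648-55492897 on the minus strand, the Tnf stretch chr17:35202008-35202257 on the minus strand, the Tnfaip3 stretch chr10:19015411-19015440 on the minus strand and the Nfkb2 stretch chr19:46304695-46304724 on the plus strand.
Nfkbia: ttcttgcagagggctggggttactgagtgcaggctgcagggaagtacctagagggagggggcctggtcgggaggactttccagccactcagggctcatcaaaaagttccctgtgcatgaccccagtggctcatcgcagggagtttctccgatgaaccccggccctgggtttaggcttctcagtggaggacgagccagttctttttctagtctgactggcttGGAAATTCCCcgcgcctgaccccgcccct
Tnf: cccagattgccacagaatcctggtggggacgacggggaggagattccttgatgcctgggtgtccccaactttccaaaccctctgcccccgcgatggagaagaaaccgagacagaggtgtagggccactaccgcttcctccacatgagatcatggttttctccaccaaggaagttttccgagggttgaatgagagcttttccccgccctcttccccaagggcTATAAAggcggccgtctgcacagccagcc
Tnfaip3: gtgactGGAATTTCCatcGGAAATCCCCct
Nfkb2: cacGGGAATTCCCCccctcggggggccgaa
The capitals of Nfkbia mark a match to the kappaB consensus that begins 29 bases before the start. In Tnfaip3 they mark the short palindrome GGAANTTCC, 24 bases before the start, and a kappaB consensus match 12 bases before it. In Nfkb2 a pair of overlapping kappaB consensus matches begins 39 and 38 bases before the start. Outside the printed stretches, the same Nfkb2 window held another match 11 bases before its start. Other Nfkb2 windows held matches 236 and 225 bases before theirs. The Tnfaip3 window also held a kappaB match 125 bases and TATAAA 225 bases before the start. The capitals of Tnf mark the letters TATAAA, 29 bases before its start, and its 250-base window held no kappaB consensus match. Both strands of each window were searched. Over 32851 windows of 250 bases in the table, 3.90% held the kappaB consensus, 0.813% the palindrome GGAANTTCC, which can lie inside a kappaB match, and 12.4% TATAAA. The windows of Tnfrsf1a, Tnfrsf1b and Birc3 held no kappaB consensus match either, and a match or its lack describes these letters only. Promoters of Nfkbiz, Nfkb1 and Relb are not shown.

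RNA was sequenced from the left gastrocnemius of wild-type C57/BL6 mice, in 6 groups of 4 samples that combined both sexes with 3 conditions, at a labelled time of 24 h. Controls were sedentary and had 2 injections of neutral saline (pH 7.2 ± 0.1, 20 µl) into the muscle, 5 days apart. Sedentary pain animals had the injections at pH 5.0 ± 0.1, and 6 min of electrically driven contraction came right before the second one. Active pain animals had running wheels for 8 weeks and then the same procedure. Injection itself is therefore shared by all groups, no active group without pain was analysed here, and acid and contraction cannot be told apart. The labels do not say that replicates came from separate animals, so p-values measure the spread between these samples.

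The samples held 17612139 to 34039699 counts (median 25641196). Muscle fibre markers were abundant throughout: the sum of 7 markers was at least 82624 CPM (counts scaled to library size) in every sample. Libraries of the same group differed widely in immune markers, which are given beside the results they move with. In females, sedentary pain against control called 4867 genes, 58.5% of them higher, and 5176 with 43.9% higher after a correction for GC content and length. That correction moved the median log2 change of all genes from -0.02 to -0.14. Active against sedentary pain called 1730 genes, 21.04% of them higher, or 33.7% of 1886 with the correction.

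In control muscle the receptor and the main inhibitor were the most abundant of the 10 genes and Tnf the least. On the scale of CPM per kilobase of exon, levels in female controls (mean ± SD, n = 4) were 11.6 ± 4.43 for Nfkbia and 9.69 ± 3.18 for Tnfrsf1a, and the ranges of these genes overlapped. A middle tier held Nfkb2 (2.71 ± 0.27), Relb (2.30 ± 0.33), Nfkb1 (1.91 ± 0.20) and Tnfrsf1b (1.53 ± 0.29), in which each gene overlapped the next. Birc3 (0.998 ± 0.11) and Tnfaip3 (0.691 ± 0.21) also overlapped each other. Nfkbiz at 0.198 ± 0.072 and Tnf at 0.0733 ± 0.025 stood apart from every gene above them. Male controls had the same leading genes, with Nfkbia at 8.41 ± 1.94 and Tnfrsf1a at 7.46 ± 0.62, and Tnf was again last at 0.0352 ± 0.020. The 10 genes were not called between male and female controls by edgeR's quasi-likelihood test, against 2.83% of 15103 genes. DESeq2 called none of them either, and none had an unadjusted p under 0.05 in the edgeR test, against 14.9% of all genes. For 10 genes this does not show that the sexes are alike.

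**Figure D1:**
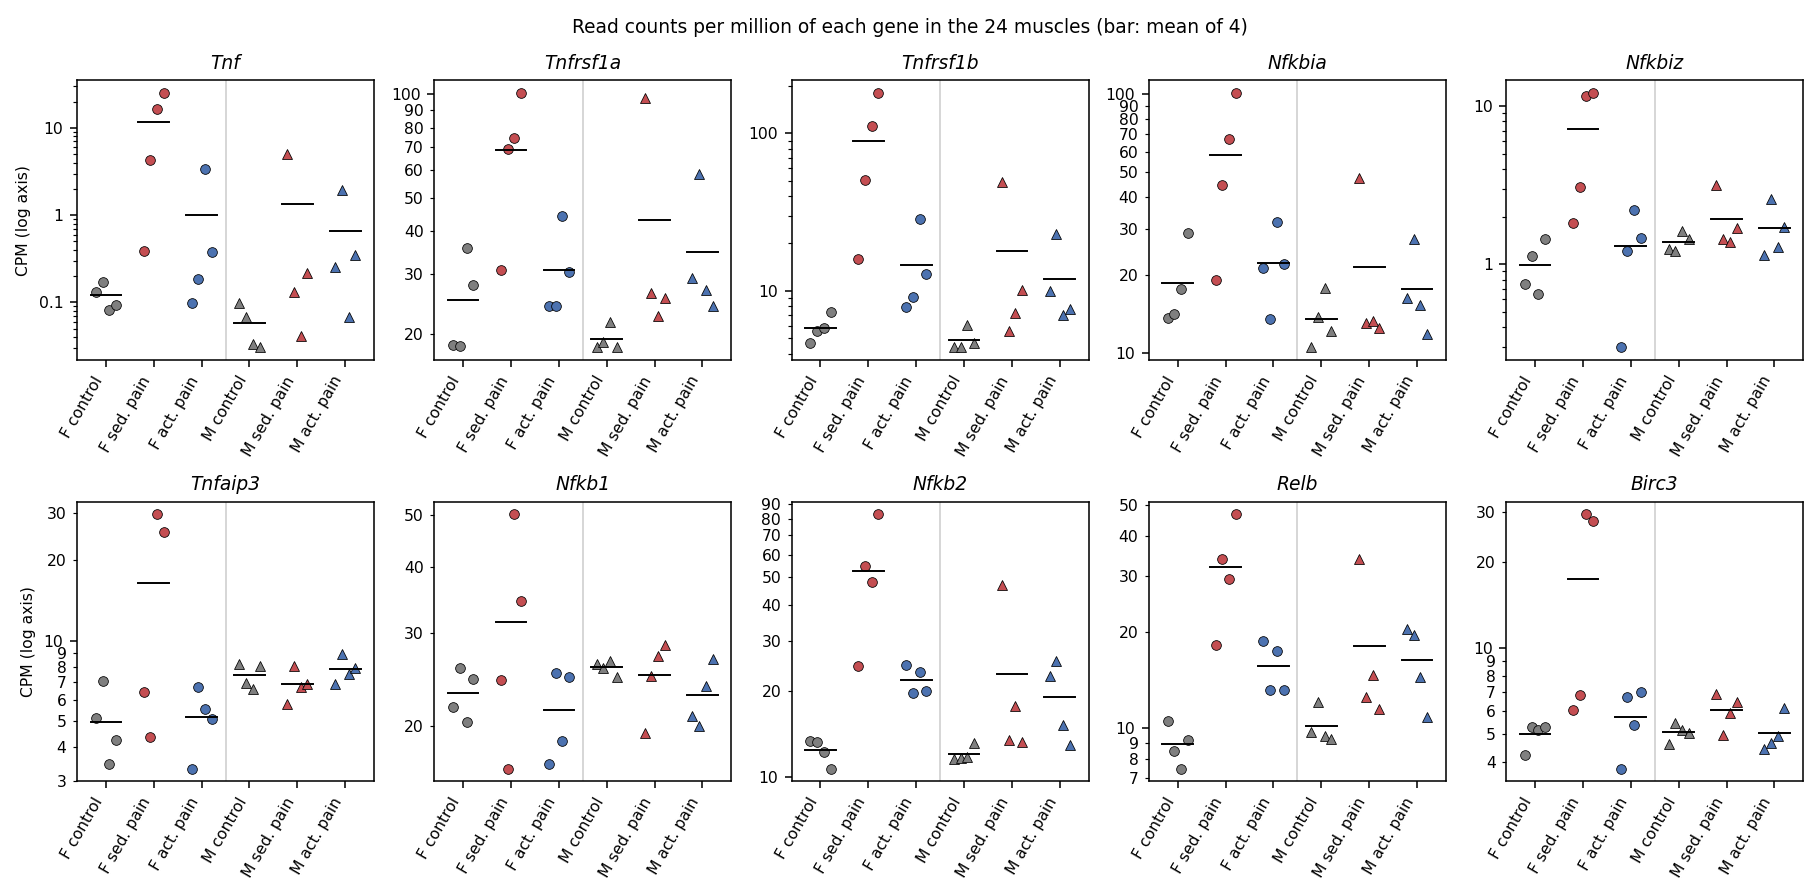
CPM (log axis) of the 10 genes in each of the 24 samples, by sex and condition, with a bar at the mean of 4. Female sedentary pain samples reach the highest level of every gene, Tnf up to 25.2, while 1 male sedentary pain sample stands above the other 3 for Tnf, Tnfrsf1a, Tnfrsf1b, Nfkbia, Nfkb2 and Relb.

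In sedentary females with pain, ligand, receptors, inhibitors and survival gene were all higher than in controls. Called higher were 9 of the 10 genes by edgeR's quasi-likelihood test (adjusted p under 0.05), where 19.6% of all 14511 tested genes were, and Nfkb1 was the exception. Tnf, 1 of the 9, passed the filter on low counts only through pain samples. The median log2 change was 1.83 for the 10 genes and -0.02 for all genes. With 1 surrogate variable in the fit none of the 10 was called (114 genes in all), Tnf at 1.53 and Tnfrsf1a at 0.11, and with replicates 1 and 2 only none was called either (238 genes in all). Values of the groups did not overlap for 6 genes, against 14.7% of all genes. In bulk muscle, more cells of a type and more RNA per cell cannot be told apart.

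Tnf, the ligand, was close to silent in female controls, with 3, 4, 2 and 3 counts in replicates 1 to 4, or 0.133, 0.173, 0.0808 and 0.0941 CPM. Sedentary pain replicates 1 to 4 had 10, 73, 498 and 704 counts, or 0.388, 4.30, 16.3 and 25.2 CPM. Every sedentary pain sample lay above every control, and the samples spread over a wide range among themselves. The fitted rise was 6.56 ± 1.42 (log2 ± SE, adjusted p = 0.0073), a 94.3-fold difference whose base is a few reads per control library. Leaving out 1 sample put the rise between 5.86 and 6.98. Tnf passed the filter on low counts only through pain samples, so its call adds no support beyond these counts.

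Both receptors rose. Tnfrsf1a, the death-domain receptor found on most cells, had 18.5, 18.5, 35.6 and 27.8 CPM in female controls and 30.6, 69.4, 74.8 and 101 CPM in sedentary pain. Replicate 1 of sedentary pain lay inside the control range and the other 3 above it, and the rise was 1.46 ± 0.35 (adjusted p = 0.0106). Tnfrsf1b, the receptor enriched on leukocytes and endothelium, went from 4.66, 5.53, 5.82 and 7.31 CPM in controls to 16.0, 50.8, 111 and 180.4 CPM. Its groups did not overlap, and the rise of 3.94 ± 0.67 (adjusted p = 0.00311) came to 15.3-fold.

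Among the inhibitors, Nfkbia, which encodes the IkappaB protein that holds NF-kappaB in the cytoplasm, had 13.7, 14.1, 17.7 and 29.0 CPM in controls and 19.0, 44.6, 67.1 and 101 CPM in sedentary pain. Replicate 1 again overlapped the controls, and the rise was 1.64 ± 0.45 (adjusted p = 0.0189). That call was lost in 5 of 29 alternatives, among them leaving out sedentary pain replicate 4 or control replicate 1 or 2, and the sign turned with 1 surrogate variable (-0.22). Nfkbiz, a nuclear IkappaB protein that assists transcription of secondary response genes, went from 0.754, 1.12, 0.647 and 1.44 CPM to 1.82, 3.06, 11.5 and 12.1 CPM, a rise of 2.84 ± 0.66 (adjusted p = 0.0101) with no overlap. Tnfaip3, the gene of A20, behaved differently by sample. Controls had 5.14, 7.08, 3.48 and 4.26 CPM, sedentary pain replicates 1 and 2 had 6.44 and 4.36, inside that range, and replicates 3 and 4 had 29.6 and 25.4. The fitted rise was 1.73 ± 0.54 (adjusted p = 0.0308). The call was lost in 11 of 29 alternatives, among them leaving out sedentary pain replicate 3 or 4 or control replicate 1, 3 or 4, and the sign turned with replicates 1 and 2 only (-0.17).

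The non-canonical subunit genes Nfkb2 and Relb rose, and the canonical Nfkb1 was not called. Of 6 other subunit and IkappaB genes, the canonical Rel and Rela among those tested, 5 were called higher, where 19.6% of all genes were. Nfkb2, which encodes p100 and p52, had 13.4, 13.3, 12.2 and 10.7 CPM in controls and 24.4, 54.8, 48.1 and 82.9 CPM in sedentary pain, a rise of 2.08 ± 0.28 (adjusted p = 0.0026). Exons of Nfkb2 overlap those of Psd and of the non-coding AC114539.1 on the opposite strand, and whether the counting used strand is not given in the sources used here, so its counts could include reads of these genes. Relb, the partner of p52, went from 10.6, 8.46, 7.48 and 9.22 CPM to 18.2, 33.9, 29.3 and 46.8 CPM, a rise of 1.84 ± 0.25 (adjusted p = 0.0026). Neither gene overlapped between the groups. Nfkb1, which encodes p105 and p50, had 21.7, 25.7, 20.4 and 24.5 CPM in controls and 24.4, 16.6, 50.2 and 34.5 CPM in sedentary pain, with values of the groups overlapping and a change of 0.45 ± 0.28 (adjusted p = 0.214). A call of Nfkb1 was gained in 4 of 29 alternatives, and its sign turned in 2.

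Birc3 encodes cIAP2, a ubiquitin ligase of the TNF receptor complex that protects cells from death. It had 4.21, 5.31, 5.17 and 5.30 CPM in controls and 6.05, 6.83, 29.5 and 27.9 CPM in sedentary pain. All 4 pain samples lay above the controls, replicates 1 and 2 only just, and the rise was 1.81 ± 0.48 (adjusted p = 0.0161).

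**Figure D2:**
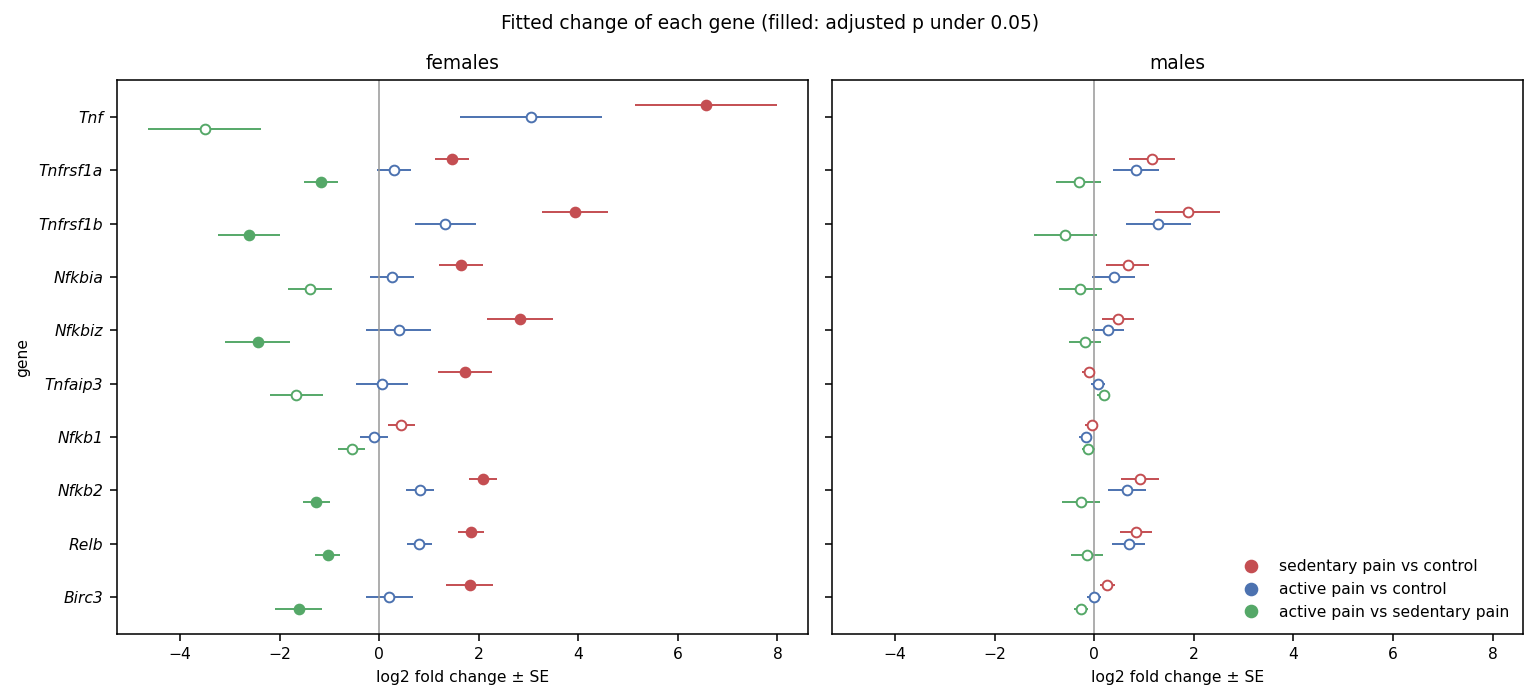
Fitted log2 fold change ± SE (x axis) of each gene (y axis) in 3 comparisons, females left and males right, with filled points where the adjusted p is under 0.05. In females 9 of 10 points of sedentary pain against control are filled, and no point is filled in males, where Tnf was not fitted.

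The genes did not move as 1 block across samples. In female sedentary pain replicates 3 and 4, all 10 genes were above the mean of the female controls. In replicate 2, Tnf, Tnfrsf1a, Tnfrsf1b, Nfkbia, Nfkbiz, Nfkb2 and Relb were at least 1.35 log2 units above that mean, while Tnfaip3, Nfkb1 and Birc3 were at -0.1, -0.4 and 0.5. Male sedentary pain replicate 1 had a similar division, with Tnf at 5.3, Tnfrsf1b at 3.3, Tnfaip3 at -0.4, Nfkb1 at -0.4 and Birc3 at 0.4 log2 units from the male control mean.

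Markers of immune cells moved with these samples. The summed level of 8 macrophage and monocyte markers was 70.2 to 160.0 CPM in female controls and 373, 582, 3088 and 3864 CPM in female sedentary pain replicates 1 to 4, and all 8 were called higher. The sum of 7 T and natural killer cell markers was 0.0863 to 2.102 CPM in controls and 3.18, 4.12, 49.0 and 87.8 CPM in those replicates, and the sum of 5 B cell markers was 0.620, 1.35, 7.45 and 11.9 CPM, against 0.310 to 1.41 in controls, so that its replicates 1 and 2 lay inside the control range. All 3 of these sums were higher in replicates 3 and 4 than in 1 and 2, as 8 of the 10 genes were, all but Nfkb2 and Relb. The library numbers in the file names split the same way, at 6, 16, 39 and 45 for these replicates. Over all groups they were 2 to 20 for replicates 1 and 2 and 25 to 45 for 3 and 4. What the library number stands for is not given. The sum of 7 neutrophil markers was 0.930 to 3.86 CPM in controls and 21.9, 256.8, 39.5 and 58.1 CPM, so that it was highest in replicate 2, and it reached 295.9 CPM in male sedentary pain replicate 1, against 2.24 to 2.67 in the other 3. The defining neutrophil marker Ly6g was at 0 in 3 control, 1 sedentary pain (replicate 4) and 2 active pain samples of females and in 4, 3 and 1 of males. The fibre marker sum was 141620, 163280, 95467 and 82624 CPM in female sedentary pain replicates 1 to 4, against 126370 to 193160 in female controls, and 1 of 7 fibre markers was called lower, a share near the 13.9% of all genes called lower. The fibroblast marker sum was 691, 379, 1276 and 880.1 CPM, against 604 to 732 in controls, and 1 of 5 was called higher, a share near the 19.6% of all genes called higher. Adipocyte markers summed to 199, 156, 2788 and 1173 CPM in female controls 1 to 4 and to 148, 213, 299 and 137 CPM in sedentary pain. Controls 3 and 4 stood high, and 4 of 5 adipocyte markers were called lower (median log2 change -2.99). Of the endothelial markers 2 of 5 were called lower. Mitochondrial genes took 8.59% to 11.02% of counts in female controls and 8.22%, 3.85%, 5.87% and 2.75% in sedentary pain replicates 1 to 4. The part of these differences in the results was not tested. Without replicates 3 and 4 of female sedentary pain, 3 of the 10 genes were called higher, as were 1128 of 15015 genes: Tnfrsf1b by 2.52 ± 0.52 (adjusted p = 0.0208), Nfkb2 by 1.68 ± 0.25 (adjusted p = 0.0125) and Relb by 1.54 ± 0.25 (adjusted p = 0.0127). Tnfaip3 was then at 0.12 ± 0.34 and Birc3 at 0.37 ± 0.25.

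**Figure D3:**
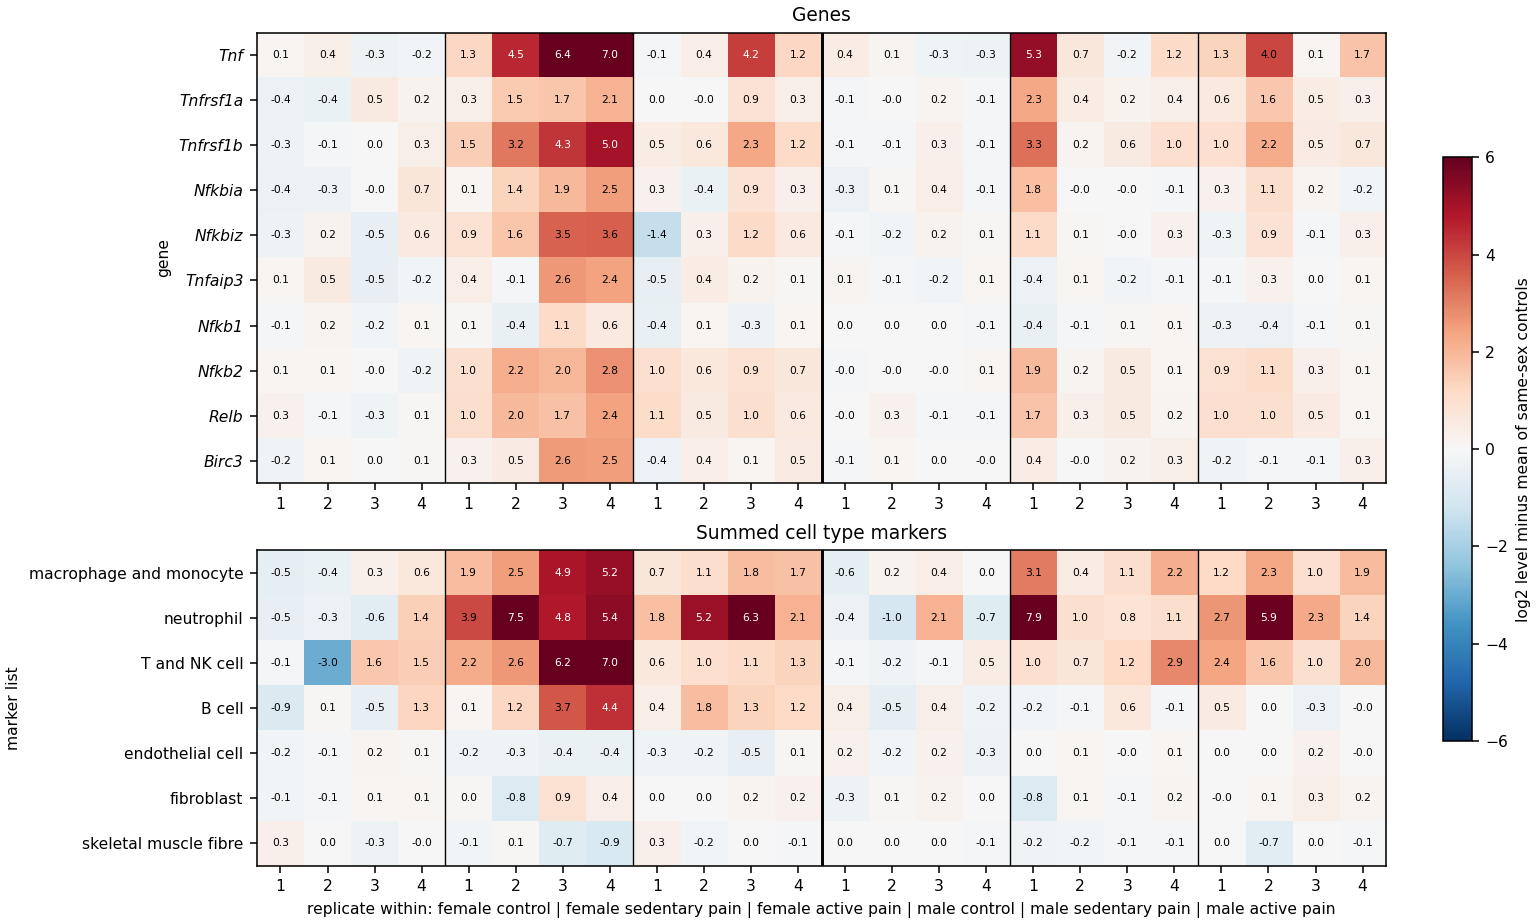
Log2 level of each gene (top) and of summed cell type markers (bottom) in each sample, relative to the control mean of that sex (colour and printed value), with replicates 1 to 4 of each group from left to right. Female sedentary pain replicates 3 and 4 are above the control mean in every gene and in macrophage, T and NK cell, B cell and neutrophil markers (neutrophil 4.79 and 5.35). Female replicate 2 and male replicate 1 of sedentary pain have the highest neutrophil values (7.5 and 7.86) and raised macrophage values (2.51 and 3.14). Both are high in Tnf, Tnfrsf1a, Tnfrsf1b, Nfkbia, Nfkb2 and Relb.

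Ratios of genes within a sample do not depend on library size. The log2 ratio of Relb to Rela counts, the non-canonical partner against the main canonical activator, was -1.22, -1.32, -1.75 and -1.40 in female controls. It was -0.728, -0.687, -0.660 and -0.570 in sedentary pain. Active pain samples had -0.661, -0.796, -0.803 and -0.865. Both pain groups lay wholly above the controls, by 0.76 and 0.64, and close to each other. Each comparison with control had an exact two-sided permutation p = 0.0286, the smallest that 4 against 4 allows, and an adjusted p = 0.114 over the 24 ratio tests run, so neither passed 0.05 after adjustment. The ratio of Tnfrsf1b to Tnfrsf1a moved from -2.07 ± 0.38 (SD, n = 4) in female controls to 0.0046 ± 0.84 with sedentary pain, and was -1.22 ± 0.42 with active pain. The ratio of Nfkb2 to Nfkb1 moved from -0.89 ± 0.23 to 0.73 ± 0.90 and 0.047 ± 0.45. For both of these ratios the 2 pain groups also lay above the controls without overlap, at the same exact permutation p = 0.0286 and adjusted p = 0.114. Nfkbiz to Nfkbia differed by 0.997 between sedentary pain and control (exact permutation p = 0.0571, adjusted p = 0.125), with overlap. In males no ratio separated the groups, and the lowest exact permutation p was 0.0571.

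**Figure D4:**
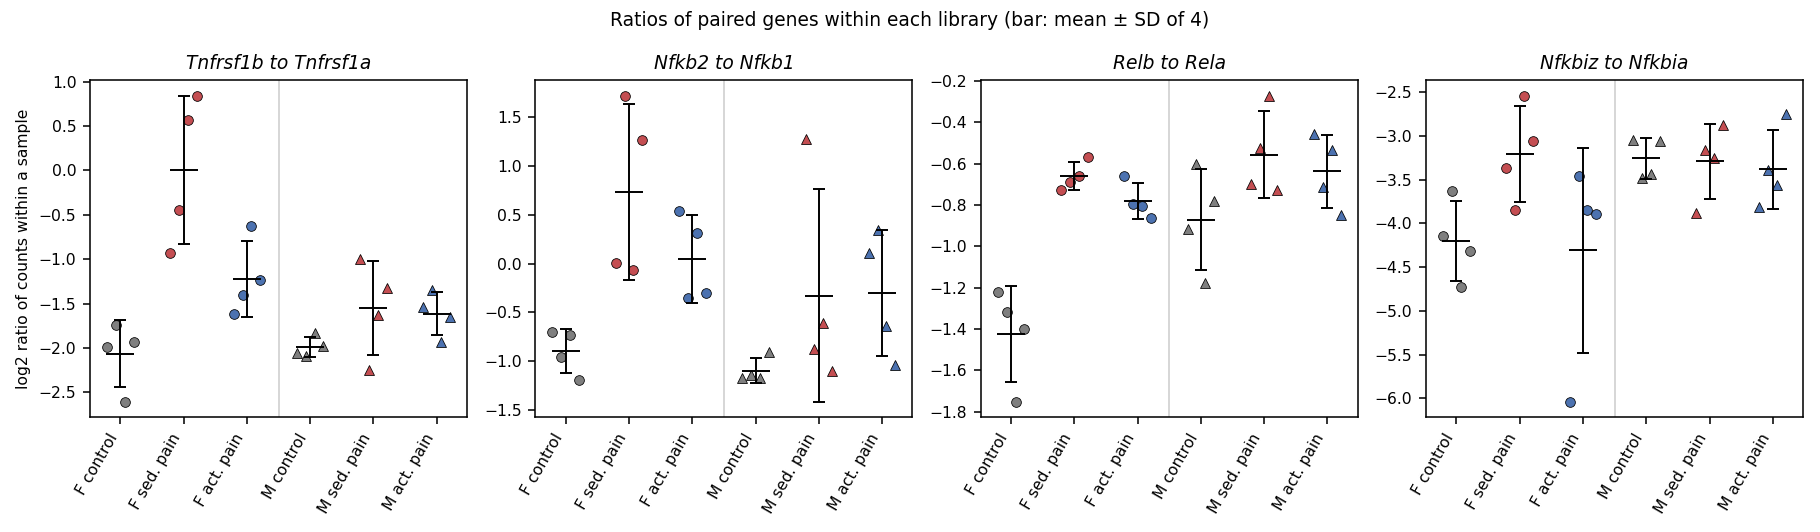
Log2 ratio of counts of 4 gene pairs within each sample, by sex and condition, with the mean ± SD of 4 samples. Both female pain groups lie above the female controls for the first 3 pairs, and for Relb to Rela the female pain samples lie between -0.865 and -0.570 while the controls lie at -1.22 or lower.

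In active females the same procedure left no called change. Against control, edgeR's quasi-likelihood test called 0 of the 10 genes, and 0% of 14511 genes, while DESeq2 also called none of the 10 and 124 genes in all. An unadjusted p under 0.05 was found for 2 of the genes, against 7.03% of all genes: Relb at 0.81 ± 0.25 (adjusted p = 0.565) and Nfkb2 at 0.82 ± 0.28 (adjusted p = 0.594). Values lay wholly above the controls for 3 genes, against 3.76% of all genes. These were Nfkb2 (24.6, 19.7, 23.3 and 20.0 CPM), Relb (18.8, 13.2, 17.4 and 13.2 CPM) and Tnfrsf1b (7.86, 9.13, 28.5 and 12.9 CPM). Tnf had 2, 5, 86 and 12 counts in active pain, so that replicate 3, at 3.40 CPM, carried most of its change of 3.05 ± 1.42 (adjusted p = 0.716). That replicate also had the highest neutrophil marker sum of its group, 114.9 CPM, against 4.98, 50.9 and 6.06 in the others. The neutrophil sums of all 4 lay above the controls (0.930 to 3.86 CPM), as did their macrophage sums, 167, 212, 363 and 342 CPM against 70.2 to 160.0. The T and natural killer cell sums, 1.05 to 1.72 CPM, lay inside the control range. The part of these was not tested. The other changes were between -0.11 and 1.32 on the log2 scale, and the sign of Nfkb1 turned with the GC and length correction (0.073). Nfkbia turned with 1 surrogate variable (-0.069), Nfkbiz with replicates 1 and 2 only (-0.29), and Tnfaip3 in several alternatives (lowest -0.30).

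Set directly against sedentary pain, which supplies the same sedentary samples as above, active pain in females had lower levels of 6 genes by edgeR's quasi-likelihood test, where 9.41% of all genes were called lower. The falls were 1.17 ± 0.34 for Tnfrsf1a (adjusted p = 0.047), 2.62 ± 0.63 for Tnfrsf1b (0.0328), 2.44 ± 0.65 for Nfkbiz (0.0363), 1.26 ± 0.28 for Nfkb2 (0.0328), 1.03 ± 0.25 for Relb (0.0328) and 1.61 ± 0.47 for Birc3 (0.0462). Tnf at -3.51 ± 1.14, Nfkbia at -1.38 ± 0.44 and Tnfaip3 at -1.67 ± 0.53 had adjusted p of 0.0624, 0.0604 and 0.0606 and were not called. Their calls were gained in 8 of 28, 8 of 29 and 6 of 29 alternatives. Leaving out 1 sample put Tnf between -5.66 and -2.81, and with 1 surrogate variable Tnf turned to 0.35 and Nfkbia to 0.15. Nfkb1 was at -0.55 ± 0.28 (adjusted p = 0.185). For none of the 10 genes were the active values wholly below the sedentary ones, against 6.04% of all genes. The count fell to 0 when any 1 of sedentary pain replicates 3 and 4 or active pain replicates 1, 2 and 4 was left out, and also with only these groups in the fit, while DESeq2 called 9 of the 10 and 3010 of 14502 genes. The calls of Tnfrsf1a and Birc3 were lost in 10 of 12 fits that left out 1 sample and in 16 of 29 alternatives, among them leaving out any 1 control, and those of the other 4 genes in 5 of the 12. Cell type markers moved beside them: 6 of 8 macrophage markers (median log2 change -2.47) and both tested T and natural killer cell markers (median -4.64) were called lower, and 0 of 6 tested neutrophil markers. The macrophage sums in active pain lay wholly below the 373 to 3864 CPM of sedentary pain. Of the fibre markers 0 of 7 were called, and their sum was 138430 to 194570 CPM in active pain against 82624 to 163280. The part of these was not tested.

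Active female values of the remaining genes show how close they came to control. Tnfrsf1a had 24.2, 24.2, 44.1 and 30.4 CPM, Nfkbia 21.3, 13.5, 32.1 and 21.95 CPM, and Nfkbiz 0.299, 1.21, 2.21 and 1.47 CPM. Tnfaip3 lay between 3.34 and 6.70 CPM, Nfkb1 between 16.9 and 25.2 CPM, and Birc3 between 3.78 and 7.03 CPM. Each of these 6 genes overlapped the control range.

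In males, none of the 9 genes that could be fitted was called after the pain procedure, and Tnf was too low for the fit. In sedentary pain against control, 9 genes passed the filter on low counts and edgeR's quasi-likelihood test called 0 of them, as it called 0% of 14404 genes, and DESeq2 called none of the 9 and 270 genes in all. An unadjusted p under 0.05 was found for 4 genes, against 8.84% of all genes: Tnfrsf1b at 1.87 ± 0.65, Tnfrsf1a at 1.15 ± 0.46, Nfkb2 at 0.92 ± 0.38 and Relb at 0.84 ± 0.33, with adjusted p of 0.407, 0.491, 0.523 and 0.488. Without sedentary pain replicate 1 these changes were 0.64, 0.36, 0.30 and 0.35. Tnfrsf1a and Nfkb2 values lay wholly above the controls, which held for 4.47% of all genes. For Nfkb2 the ranges all but touched, with a lowest sedentary pain value of 13.229 CPM and a highest control of 13.194.

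A single male library stood above the rest of its group. Tnfrsf1a had 97.8 CPM in sedentary pain replicate 1 and 26.4, 22.6 and 25.4 in replicates 2 to 4, with controls between 18.3 and 21.7. Tnfrsf1b had 48.8 CPM there and 5.55, 7.27 and 10.1 in the others, Nfkbia 47.3 against 13.03, 13.3 and 12.5, Nfkb2 47.1 against 13.6, 17.7 and 13.2, and Relb 33.8 against 12.5, 14.7 and 11.5 CPM. Tnf had 125 counts (4.98 CPM) in that library and 4, 1 and 6 in the others, against 3, 2, 1 and 1 in male controls. Nfkbiz reached 3.18 CPM there and 1.37 to 1.69 in the others. Tnfaip3, between 5.81 and 8.07 CPM in sedentary pain and 6.61 and 8.19 in controls, was lowest in that same library. Nfkb1 (19.4 to 28.4 CPM) and Birc3 (4.95 to 6.93 CPM) overlapped the controls. Without replicate 1 the change of Nfkbia was -0.067. Besides its neutrophil sum, that library had a macrophage sum of 677 CPM against 104 to 348 in replicates 2 to 4, a fibroblast sum of 423 against 698 to 828 and a sum of 4 satellite (muscle stem) cell markers of 2.51 against 6.89 to 7.19. Mitochondrial genes took 4.53% of its counts and 10.43% to 11.31% of theirs, and the part of these was not tested.

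Active pain in males gave 0 called genes against control (0% of 14404 genes, with DESeq2 none of the 9 tested and 127 genes in all), and none of the 9 had an unadjusted p under 0.05, against 7.25% of all genes. Changes ran from -0.17 for Nfkb1 to 1.28 ± 0.65 for Tnfrsf1b (adjusted p = 0.634). Tnfrsf1a (29.1, 58.4, 26.8 and 24.1 CPM) and Tnfrsf1b (10.04, 23.0, 7.02 and 7.69 CPM) lay wholly above the controls, against 6.44% of all genes. Replicate 2 was the highest of this group for Tnf, Tnfrsf1a, Tnfrsf1b, Nfkbia, Nfkbiz, Tnfaip3 and Nfkb2. It also had the highest neutrophil marker sum, 76.3 CPM against 3.27 to 8.10 in the others, the highest macrophage sum, 385 CPM against 154 to 283, and the lowest fibre sum, 101900 CPM against 149340 to 166180. The macrophage sums of every active male sample lay above the male controls (50.6 to 101.7 CPM). So did the T and natural killer cell sums, 0.706 to 1.86 CPM against 0.305 to 0.491. The part of these was not tested. Active against sedentary pain in males also called 0 of the 9 genes tested and 0% of all genes (DESeq2 none), with 0 at an unadjusted p under 0.05, against 0.84% of all genes. Tnf, too low in males for the fit, differed by 1.62 log2(CPM + 0.1) units between sedentary pain and control (exact two-sided permutation p = 0.114) and by 1.63 between active pain and control (exact permutation p = 0.0857).

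Whether the sexes differed was tested as the male change minus the female change, with all 24 samples. For sedentary pain against control all 10 differences were negative, between -2.40 (Nfkbiz) and -0.34 (Tnfrsf1a). None was called by edgeR's quasi-likelihood test (0% of 15103 genes) or by DESeq2 (15 genes in all), and 6 had an unadjusted p under 0.05, against 9.57% of all genes. These were Tnfaip3 (-1.88 ± 0.57, adjusted p = 0.432), Nfkbiz (-2.40 ± 0.75, 0.432), Birc3 (-1.59 ± 0.51, 0.432), Nfkb2 (-1.20 ± 0.49, 0.473), Relb (-1.04 ± 0.43, 0.473) and Tnfrsf1b (-2.11 ± 0.93, 0.486). For active against sedentary pain, which shares the sedentary samples, all 10 differences were positive, from 0.46 (Nfkb1) to 2.51 (Tnf). Again 0% of genes and none of the 10 were called by edgeR, DESeq2 called none of the 10 and 111 genes in all, and 6 had an unadjusted p under 0.05, against 14.7% of all genes. Without male sedentary pain replicate 1 this last comparison called 8 of the 10 genes and 2174 genes in all, Nfkb2 at 1.66 ± 0.38 and Tnfrsf1b at 3.29 ± 0.80 (edgeR adjusted p = 0.0228 for both), and without female sedentary pain replicate 1 it called 3 of the 10 and 622 of 15404 genes. For active pain against control no gene was called by edgeR (0%) or any of the 10 by DESeq2, and 0 of the 10 had an unadjusted p under 0.05, against 2.03% of all genes.

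Neighbouring genes of the pathway, in 6 lists and none of them among the 10, were also called in sedentary females, where 19.6% of all tested genes were called higher and 13.9% lower. By edgeR's quasi-likelihood test, 10 of 13 tested target genes were called higher, with a median log2 change of 3.39, led by the cytokine Il1b (7.76 ± 1.77, adjusted p = 0.00893) and the survival gene Bcl2a1b (6.29 ± 1.41, 0.00833), whose near-identical copies could share reads. Of the other subunit and IkappaB genes, 5 of 6 were higher (median 2.38), led by Nfkbid (4.91 ± 1.04, 0.00668) and Nfkbie (3.96 ± 0.67, 0.00311), both IkappaB proteins. Other negative regulators had 8 of 13 higher and 1 lower (median 1.10): Tnip3, a partner of A20, at 4.64 ± 1.08 and Tnfaip8l2 at 4.20 ± 0.66 rose, and the deubiquitinase Otud7b fell by 0.55 ± 0.19 (adjusted p = 0.044). Receptor-proximal genes had 8 of 16 higher and 1 lower (median 0.58), with the receptor Cd40 at 4.95 ± 0.85, the adaptor Traf1 at 4.89 ± 0.91 and the adaptor Tab2 lower, at -0.56 ± 0.18 (adjusted p = 0.0318). Among 4 tested ligand and release genes 2 were higher (median 0.96), lymphotoxin Ltb at 5.52 ± 1.01 and the TNF-shedding protease Adam17 at 0.94 ± 0.33 (adjusted p = 0.0442). Kinase and linear ubiquitin complex genes had 2 of 7 higher (median 0.45), Rnf31 at 0.86 ± 0.18 and Ikbkb at 0.72 ± 0.23, a share near that of all genes.

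In active against sedentary females these lists had 4 of 13 targets lower, 3 of 6 subunit and IkappaB genes, 5 of 13 negative regulators, 3 of 16 receptor-proximal genes, 1 of 4 ligands and 1 of 7 kinase genes, and none higher, where 9.41% of all genes were called lower. The shares of kinase and receptor-proximal genes lie near that of all genes. The largest falls of named genes were those of Tnip3 (4.34 ± 1.05, adjusted p = 0.0328), Bcl2a1b (4.04 ± 1.17, 0.0454), Cd40 (3.61 ± 0.78, 0.0328) and Ltb (3.60 ± 0.88, 0.0329). Il1b was at -2.04 ± 1.23 (adjusted p = 0.26) and was not called. No gene of any kind was called, so every one of these calls ended, when sedentary pain replicate 4 or active pain replicate 1, 2 or 4 was left out, with only these groups in the fit, or with 1 surrogate variable, and 3 of 14679 genes were called without sedentary pain replicate 3. In active females against control, and in each male comparison, 0 genes of the 6 lists were called, where edgeR called 0% of all genes. Of the genes named above, Ltb, Nfkbid, Tnip3 and Bcl2a1b were too low in males to be tested, and 10 of 14 target genes were tested. Among those 10, changes in male sedentary pain against control reached 8.47 without a call.

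The genes whose pattern over the 24 samples came closest to 3 of the 10 were also listed, for the 3 with the widest range among those whose log2 CPM averaged 1 or more, by the mean absolute difference of log2 CPM after subtracting the control mean of that sex, among 11151 genes. For Tnfrsf1b these were Irf5 (0.196), Efhd2 (0.203) and Syk (0.203), for Tnfaip3 they were Dtx3l (0.209), Slc31a2 (0.234) and Acp2 (0.247), and for Nfkb2 they were Plekho1 (0.193), Armc7 (0.1998) and Mvp (0.211).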

How the data were processed

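RNA-seq counts of 24 samples were used. Per the labels' protocols, stranded libraries were made from 0.5 µg of total RNA and read as paired ends of 100 bases. The deposited values are whole-number counts per Ensembl gene, with no normalization by the authors found in them. The submitters' processing notes name HISAT2 2.1.0, Salmon 0.9.1, featureCounts, DESeq2 1.24.0 and the builds mm10 and GRCm38.p6; which of these made the counts, and whether strand was used, is not given in the sources used here. Symbols and positions came from GENCODE M21.

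Counts were scaled by TMM and filtered with filterByExpr (minimum count 10), and edgeR 4.0.16 quasi-likelihood tests with robust estimation were run in R 4.3.3, two-sided, with Benjamini-Hochberg adjustment over all genes and a threshold of 0.05. Each sex was fitted on its 12 samples, and sex differences on all 24. The SE is the one that corresponds to the test's p. Ratios (0.5 added to each count) and Tnf in males were compared by exact permutation of the 70 arrangements, with SciPy 1.17.1, NumPy 2.4.6, pandas 2.3.3 and matplotlib 3.10.9 in Python 3.11.15. The script was tested on simulated data.

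The 10 genes, the 6 pathway lists (63 symbols), the 10 marker lists (57 symbols) and the tests were chosen with earlier results of these data known. All 10 genes are named. From each pathway list, the called genes that rose most (up to 2) and fell most (up to 2) in female sedentary pain against control are named. The 3 closest genes are named for the 3 of the 10 with the widest range and a mean log2 CPM of at least 1 (prior count 2). Alternatives were RLE scaling, DESeq2 1.42.0, other filters, no robust step, other sets of samples, the replicate block, a factor that split replicates 1 and 2 (low library numbers) from 3 and 4 (high ones), 1 surrogate variable (sva 3.50.0), GC and length offsets, and each sample left out. Leaving out samples chosen by how they looked was added after seeing the data.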

Additional observations from a re-analysis of the deposited data

Results flagged for a closer look

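Of 60 groups of 4 CPM values (10 genes in 6 groups), 13 held a sample whose gap to the nearest other value took up more of the group's range than Dixon's critical value for 4 samples allows. Chance gives about 1 in 20, or 3 groups. In male sedentary pain, replicate 1 was the high sample for Tnf (4.98), Tnfrsf1a (97.8), Tnfrsf1b (48.8), Nfkbia (47.3), Nfkb2 (47.1) and Relb (33.8). In male active pain, replicate 2 was the high sample for Tnf (1.94) and Tnfrsf1a (58.4). In female active pain, replicate 3 was the high sample for Tnf (3.40). In controls the distances were small in absolute terms: Tnfrsf1b in male control replicate 3 (6.08, others up to 4.66), Nfkb2 in male control replicate 4 (13.2, others up to 11.8), Relb in male control replicate 2 (12.1, others up to 9.71) and Birc3 in female control replicate 1, which was low (4.21, others from 5.17).

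For Tnfaip3 in active against sedentary pain, on the log2(CPM + 0.1) scale, all 4 active females lay below the mean of the sedentary females and all 4 active males above that of the sedentary males, though male replicate 1 (6.8753 CPM) was level with the sedentary mean in CPM (6.8755), with a female minus male difference of the mean log2(CPM + 0.1) changes of -1.44 (-1.435 before rounding). The sedentary female mean was raised by replicates 3 and 4 (29.6 and 25.4 CPM). Sedentary female replicates 1 and 2 (6.44 and 4.36 CPM) lay inside the active female range of 3.34 to 6.70. The test of the difference on all 24 samples gave 1.89 ± 0.57 as male minus female change (adjusted p = 0.228, edgeR).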

How the results depend on the processing

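Groups of 4 samples and the spread of female sedentary pain limit what could be called, and Tnf rests on 1 to 4 counts in each control library. Same-numbered samples had a mean residual correlation of 0.109 in females (-0.32 to 0.415; other numbers -0.0363) and 0.0131 in males (-0.647 to 0.592; other numbers 0.00674). Not every pair was above 0.1, so the samples were treated as sharing only a number, which within each group rises with the library number. With the replicate block, 8 of the 10 genes were called in female sedentary pain against control (3739 genes in all), Tnfaip3 being lost (adjusted p = 0.0828). In active against sedentary pain 7 were called (1629 genes in all): Birc3 was lost (0.0596) and Tnf (0.0313) and Nfkbia (0.0461) were gained, and Tnfaip3 in female active pain against control was at -0.032. With 1 surrogate variable the calls fell from 9 to 0 and from 6 to 0 in these comparisons (114 and 0 genes in all), and the cause was not tested. Calls in active against sedentary females were 1 with no low-count filter (174 genes) and 0 with only the 2 groups compared (0 genes, and 2847 in sedentary pain against control). DESeq2 called 5773 and 3010 genes.

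Leaving out 1 sample gave 7 to 9 called of the 10 genes in female sedentary pain against control (2486 to 6674 genes in all), 0 to 9 in active against sedentary females (0 to 4316) and 0 to 8 in the sex difference of the latter (0 to 2174). Replicates 1 and 2 alone called 0 and 0 in these female comparisons (238 and 0 genes in all), and replicates 3 and 4 alone 10 and 10 (3456 and 2306). Without female sedentary pain replicates 3 and 4 together the calls were 3 and 0 (1440 and 0 of 15015 genes), and without replicates 1 and 2 together active against sedentary pain called 10 (4757 of 15560 genes), both chosen after seeing the data.

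Signs turned as follows, on the log2 scale, and apart from fewer samples the cause was not tested. With the surrogate variable Nfkbia against control was at -0.22 (sedentary) and -0.069 (active) in females and at -0.27 and -0.34 in males, and at 0.15 in active against sedentary females, where Tnf was at 0.35. Also with it, Tnfaip3 was at -0.13 in female active pain, Nfkbiz at -0.016 and -0.14 and Nfkb1 at 0.11 in males (Nfkbiz in sedentary and active pain, Nfkb1 in sedentary pain) against control. With replicates 1 and 2 only, Tnfaip3 was at -0.17 and Nfkb1 at -0.21 for sedentary females against control, Nfkbiz at -0.29 and Tnfaip3 at -0.30 for active females, and Nfkb1 at 0.0093 in active against sedentary females. Without female sedentary pain replicates 3 and 4, Nfkb1 was at -0.17 against control and 0.059 in active against sedentary pain. A factor that split replicates 1 and 2 from 3 and 4 put Tnfaip3 at -0.0037 in female active pain against control. GC and length offsets put Nfkb1 at 0.073 for active females, 0.14 for sedentary males and 0.077 for active males, all with pain and against control, and with the replicate block added at 0.063, 0.14 and 0.076. With replicates 3 and 4 only, male values against control were -0.21 (Nfkbia) and 0.12 (Nfkb1) in sedentary pain and -0.14 (Nfkbia), -0.028 (Nfkbiz) and 0.13 (Birc3) in active pain, and Tnfrsf1a and Nfkbia were at 0.088 and 0.076 in active against sedentary males. Without male sedentary pain replicate 1 and active pain replicate 2 together, Nfkbia was at -0.068 and Nfkb1 at 0.052 in sedentary pain, Birc3 at 0.040 in active pain against control, and Tnfrsf1a, Tnfrsf1b, Nfkbia, Nfkb2 and Relb at 0.11, 0.12, 0.17, 0.21 and 0.26 in active against sedentary males. A mean of at least 50 counts put Birc3 at 0.0066 in male active pain against control.

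Leaving out 1 sample gave ranges across 0 for Tnfaip3 in female active pain against control (-0.11 to 0.26), in males against control for Nfkbia (-0.067 to 0.86) and Nfkb1 (-0.12 to 0.053) in sedentary pain and Birc3 (-0.097 to 0.072) in active pain, and in active against sedentary males for Tnfrsf1a (-0.69 to 0.48), Tnfrsf1b (-1.12 to 0.64), Nfkbia (-0.57 to 0.45), Nfkbiz (-0.47 to 0.16), Nfkb2 (-0.45 to 0.36) and Relb (-0.31 to 0.34). Among ratios it did so in active against sedentary males for Tnfrsf1b to Tnfrsf1a (-0.29 to 0.12), Nfkb2 to Nfkb1 (-0.24 to 0.56), Relb to Rela (-0.14 to 0.014) and Nfkbiz to Nfkbia (-0.30 to 0.054), and for Nfkbiz to Nfkbia against control for active females (-0.39 to 0.47), sedentary males (-0.18 to 0.16) and active males (-0.33 to 0.018). With replicates 1 and 2 only and 3 and 4 only, Tnfrsf1b to Tnfrsf1a differed from control by 1.17 and 2.97 for sedentary females, 0.35 and 1.33 for active females and 0.63 and 0.12 for active males, Relb to Rela by -0.021 and -0.22 in active against sedentary females, and Nfkbiz to Nfkbia by 0.27 and 1.72 in female sedentary pain against control. Tnf in active against sedentary males was at 0.0073 with 0.1 CPM added and -0.15 with 0.5 (exact permutation p = 0.914).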
